A study of Mus musculus with 16 samples.

Results

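The genes described are Fads2, Fads1, Elovl5, Elovl2, Elovl3, Scd2, Acsl5 and Acot1, 8 of the 41079 genes in a table of liver RNA-seq counts, taken by name. All 8 passed a filter on low counts that kept 16742 genes. The working name of the group, polyunsaturated fatty acid desaturases and elongases, covers only a part of it. Scd2 is a desaturase that makes monounsaturated chains, and Elovl3 elongates saturated and monounsaturated chains. The other 2 members, the acyl-CoA synthetase Acsl5 and the acyl-CoA thioesterase Acot1, belong to other enzyme families.

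As background, the liver makes long polyunsaturated fatty acids from the essential fatty acids of the diet by alternating desaturation and elongation. FADS2 adds the first double bond, ELOVL5 lengthens the product, FADS1 adds a further double bond and ELOVL2 extends the chains towards docosahexaenoic acid. Several of these genes are known targets of SREBP-1c, the insulin-responsive regulator of fatty acid synthesis, and of PPARα, the fatty acid-sensing regulator of oxidation.

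Livers came from 16 mice on the C57BL/6J background at 20 to 22 months of age, 4 in each of 4 groups. LKO mice carried loxP-flanked (floxed) Gcgr alleles, encoding the glucagon receptor, and an Albumin-Cre transgene, which is active in liver parenchymal cells. CRE- mice had the same floxed alleles without the transgene, so that both genotypes shared the floxed locus. Since the transgene acts during development, the LKO livers had lacked the receptor since early life. The question was how loss of the receptor in the liver of old males and females relates to expression of these genes. Each mouse gave 33268424 to 56488920 reads on genes, with group medians of 44288170 in male CRE-, 38475730 in male LKO, 46840916 in female CRE- and 37348751 in female LKO mice. Values are given as CPM, counts scaled to library size with TMM factors, for each of the replicates 1 to 4 in turn. Levels of different genes are compared only as TPM, which divides by exon length and leaves out the TMM factors. A gene can therefore differ between genotypes by another amount in TPM than in CPM. A gene was called when edgeR's quasi-likelihood test gave a Benjamini-Hochberg adjusted p under 0.05 over the 16742 genes.

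Gcgr itself (chromosome 11, 120420011 to 120429815, GRCm39) was read at 190, 193, 127 and 190 CPM in male CRE- and at 116, 136, 130 and 160 CPM in male LKO livers. Female CRE- livers had 162, 208, 201 and 180 CPM and female LKO livers 48.8, 132, 119 and 93.6 CPM. The female groups did not overlap, and the male groups did, because male CRE- replicate 3 lay among the LKO values. The log2 fold change was -0.93 ± 0.25 (SE, n = 4 per group) in females (adjusted p = 0.0443, edgeR) and -0.37 ± 0.24 in males (adjusted p = 0.671, edgeR). Reads were counted over all exons of Gcgr, those that the deletion leaves in place among them, so the count checks the genotype only in part. The authors measured Gcgr RNA separately in tissues of males and females of this age and reported it as reduced only in the liver. The female call was lost without any 1 of the 8 female mice other than LKO replicate 2 (adjusted p up to 0.136, edgeR), with each sex fitted alone (0.132), without a filter on low counts (0.0545) and with at least 10 counts in every library (0.0506).

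Fads2, Fads1 and Elovl5 were lower in every LKO liver than in every CRE- liver of the same sex, in males and in females. Such a separation in both sexes was seen in 3 of the 8 members and in 106 of the 16742 genes tested (0.633%). In male LKO livers 1 of 8 members, Elovl5, fell by the test, where 0.454% of all genes tested were called and 0.233% were called lower. In female LKO livers 4 of 8 members fell, Elovl5, Fads1, Fads2 and Acsl5, where 4.24% of all genes were called and 2.15% were called lower. In CPM, LKO values lay below all CRE- values without overlap for 5 members in males (2.92% of all genes) and for 4 members in females (6.42% of all genes). The median log2 fold change of the 8 members was -0.91 in males and -0.81 in females, beside -0.01 and 0.04 over all genes tested. Because the members were chosen with earlier results of these data known, these shares and medians only describe them.

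**Figure D1:**
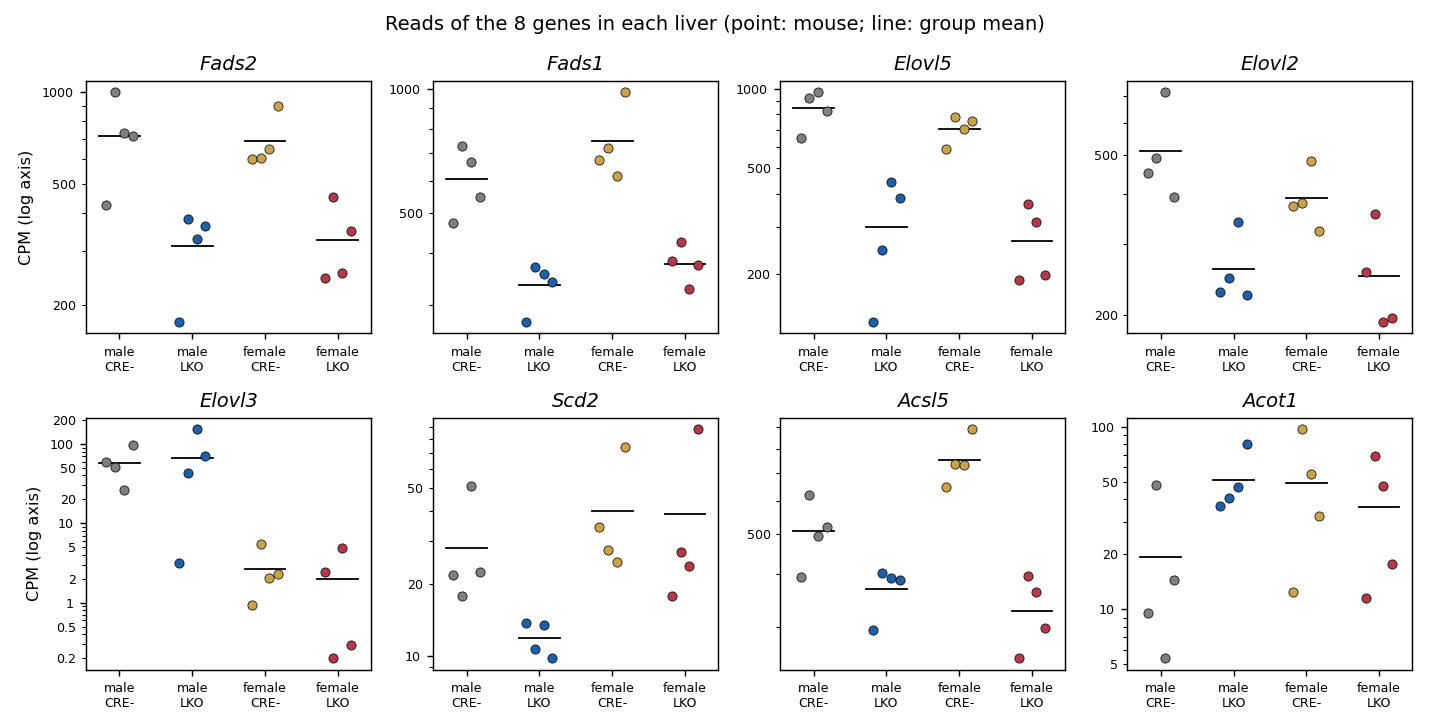
Each panel plots 1 gene, with CPM on a log axis against the 4 groups, a point for each mouse and a line at the group mean. Fads2, Fads1 and Elovl5 are lower in all LKO mice than in all CRE- mice of their sex, and Elovl3 lies between 26.4 and 97.3 CPM in male CRE- mice and at or below 5.45 CPM in all female mice.

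Fads2 encodes the Δ6 desaturase, which carries out the entry step of the pathway, and lies on chromosome 19 (10040129 to 10078867, minus strand). Its values were 427, 993, 731 and 718 CPM in male CRE- and 177, 383, 330 and 364 CPM in male LKO livers. Female CRE- livers gave 603, 604, 649 and 900 CPM, and female LKO livers 246, 451, 256 and 351 CPM. Replicate 1 was the lowest mouse of both male groups, and female CRE- replicate 4 stood above the other 3 controls, with no overlap between genotypes in either sex. In females Fads2 fell by 1.08 ± 0.29 on the log2 scale (SE, n = 4 per group), a 2.12-fold lower level (adjusted p = 0.0474, edgeR). The male log2 fold change of -1.19 ± 0.29 was no smaller in size but was not called (adjusted p = 0.101, edgeR). With a block on replicate number it was called (adjusted p = 0.0268, edgeR), although the numbers were not taken as pairs.

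Fads1, the Δ5 desaturase that acts after the first elongation, begins 81377 bases from the start of Fads2 and is read in the opposite direction (chromosome 19, 10160245 to 10174238, plus strand). Male CRE- livers had 473, 729, 665 and 548 CPM, and male LKO livers 273, 370, 356 and 339 CPM. In females the CRE- values were 675, 719, 617 and 982 CPM and the LKO values 382, 425, 328 and 374 CPM. The male LKO values of Fads1 were close together, with a coefficient of variation of 12.9% beside 19% in the controls. In females the order depended on the scaling, 10.6% beside 21.6% in CPM and 16.6% beside 13.2% in TPM. Fads1 fell by 0.99 ± 0.19 on the log2 scale in females (SE, n = 4 per group; adjusted p = 0.0168, edgeR), and its male value of -0.85 ± 0.19 was not called (adjusted p = 0.0714, edgeR). The TPM of Fads2 divided by that of Fads1 was 1.42 ± 0.255 (SD, n = 4) in male CRE- and 1.12 ± 0.234 in male LKO livers, and 1.13 ± 0.110 and 1.04 ± 0.220 in the female groups. The ratios overlapped between genotypes in both sexes and were not tested.

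Elovl5, which elongates polyunsaturated chains of intermediate length, lies on chromosome 9 (77824647 to 77891801, plus strand) and had the member log2 fold change farthest below 0 in both sexes. It was read at 653, 921, 967 and 823 CPM in male CRE- and 132, 245, 442 and 385 CPM in male LKO livers. Female CRE- livers gave 591, 778, 702 and 753 CPM, and female LKO livers 190, 366, 313 and 198 CPM. Controls kept within a narrow range, while LKO mice differed among themselves by 3.36-fold in males and 1.93-fold in females, still below all controls. The log2 fold change was -1.48 ± 0.32 in males (SE, n = 4 per group; adjusted p = 0.0494, edgeR) and -1.40 ± 0.32 in females (adjusted p = 0.0259, edgeR), levels 2.79-fold and 2.65-fold lower.

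Elovl2 carries the elongation further, on chains that lead to docosahexaenoic acid (chromosome 13, 41335858 to 41373879, minus strand). Its values were 449, 490, 713 and 392 CPM in male CRE- and 228, 248, 341 and 225 CPM in male LKO livers. Female CRE- livers had 373, 379, 484 and 324 CPM, and female LKO livers 255, 356, 193 and 197 CPM. Male groups did not overlap, whereas female LKO replicate 2 lay above the lowest female control. In TPM the male groups were apart too, but female LKO replicates 1 and 2 (178.8 and 182.5 TPM) lay above the lowest female control (128.5 TPM). Female means were 177 ± 38.1 TPM in CRE- and 144 ± 42.8 TPM in LKO livers (SD, n = 4), a smaller fall than in CPM. The log2 fold change of -0.97 ± 0.24 in males (adjusted p = 0.108, edgeR) and -0.64 ± 0.24 in females (adjusted p = 0.131, edgeR; SE, n = 4 per group) did not pass the test. In females Elovl2 was called by limma-voom (-0.79 ± 0.21, adjusted p = 0.0213) and by edgeR without LKO replicate 2 (-0.86 ± 0.24, adjusted p = 0.0410). Within a mouse, Elovl5 TPM was 1.69 to 2.62 times Elovl2 TPM in male controls and 0.722 to 2.14 times in male LKO mice, and 1.82 to 2.90 times against 0.928 to 2.03 times in females, so the ratios overlapped between genotypes.

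Most of these calls stood near the threshold. The male call of Elovl5 was lost when any 1 male mouse other than LKO replicate 3 was left out (adjusted p 0.0776 to 0.148, edgeR), when each sex was fitted alone (0.0873) and when at least 10 counts were asked in every library (0.0539), whereas DESeq2, which called 339 genes in males where edgeR called 76, called 4 members, Elovl5, Elovl2, Fads1 and Fads2. The female calls of Fads1 and Fads2 were lost when each sex was fitted alone (adjusted p = 0.0657 and 0.0784, edgeR), and that of Fads2 without a filter on low counts (0.0517). In females, leaving out 1 mouse at a time kept the call of Elovl5 in 3 of 8 fits, of Fads1 in 6 of 8, of Fads2 in 1 of 8 and of Acsl5 in 8 of 8, and each direction held in all of them.

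**Figure D2:**
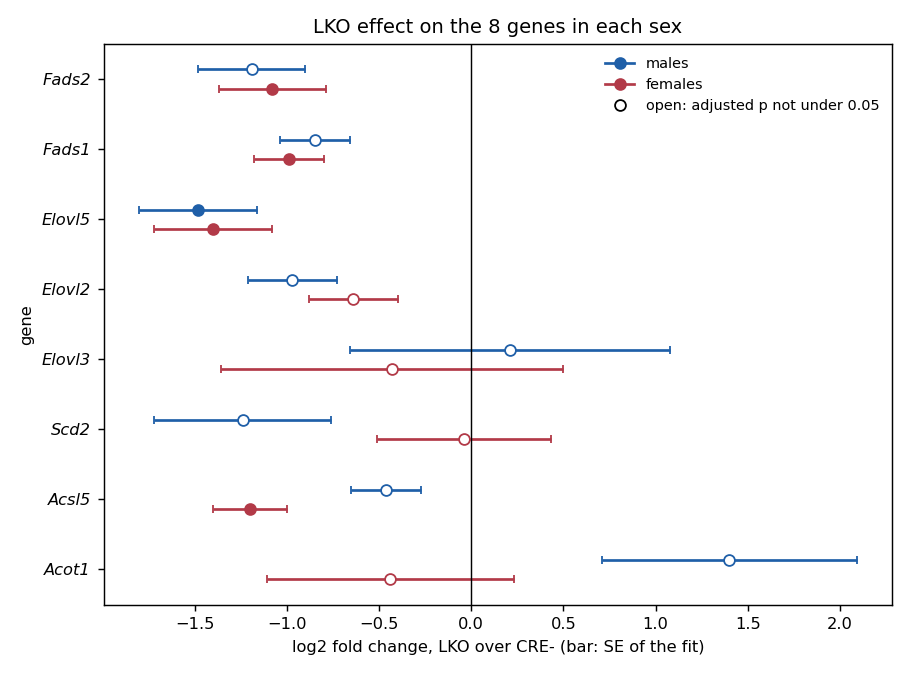
Log2 fold change of LKO over CRE- (x axis) for the 8 genes (y axis) in males and females, with the SE of the fit as bars and filled points for an adjusted p under 0.05 (edgeR). Fads2, Fads1, Elovl5 and Elovl2 lie between -0.64 and -1.48 in both sexes.

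Acsl5 encodes a synthetase that activates long-chain fatty acids to acyl-CoA, the form that elongases and desaturases use, and lies on chromosome 19 (55240298 to 55285060, plus strand). In male CRE- livers it was read at 395, 621, 495 and 520 CPM, and in male LKO livers at 295, 403, 392 and 388 CPM. Female CRE- livers gave 648, 736, 732 and 890 CPM, and female LKO livers 252, 396, 364 and 298 CPM. All female controls were above all male controls, and the genotypes were apart in females, while in males only CRE- replicate 1 reached into the LKO range. In TPM the male genotypes were apart too, at 282 or more in CRE- and 239 or less in LKO livers. Acsl5 fell by 1.20 ± 0.20 on the log2 scale in females (SE, n = 4 per group; adjusted p = 0.00646, edgeR), and its male value was -0.46 ± 0.19 (adjusted p = 0.451, edgeR). The difference between the sexes, -0.74 ± 0.27, was not called (unadjusted p = 0.0158, adjusted p = 0.240, edgeR).

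Acot1 encodes a cytosolic thioesterase that splits acyl-CoA into fatty acid and coenzyme A and is a known PPARα target (chromosome 12, 84056276 to 84064444, plus strand). It is one of a cluster of similar Acot genes, so that reads shared with its copies make its counts uncertain. Its values were 9.49, 48, 5.38 and 14.5 CPM in male CRE- and 36.8, 40.7, 46.5 and 79.8 CPM in male LKO livers. Female values ran from 12.4 to 96.8 CPM in CRE- and from 11.4 to 68.7 CPM in LKO livers. Apart from replicate 2, male controls were below all male LKO mice, and the female groups covered nearly the same range. The log2 fold changes, 1.40 ± 0.69 in males (adjusted p = 0.547, edgeR) and -0.44 ± 0.67 in females (adjusted p = 0.765, edgeR; SE, n = 4 per group), did not pass the test, nor did their difference of -1.83 ± 0.96 (adjusted p = 0.349, edgeR). Leaving out 1 mouse moved the male value between 1.08 (CRE- replicate 3) and 2.38 (CRE- replicate 2) and the difference between -2.82 (male CRE- replicate 2) and -1.27 (female CRE- replicate 2), without a call.

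Scd2, a Δ9 desaturase best known from brain, was low in these livers (chromosome 19, 44282115 to 44295303, plus strand). Male CRE- livers had 21.7, 17.7, 50.8 and 22.4 CPM, and male LKO livers 13.8, 10.7, 13.4 and 9.81 CPM. Female CRE- livers had 34.6, 27.6, 24.7 and 74.2 CPM, and female LKO livers 17.8, 27.1, 23.6 and 87.8 CPM. A single mouse stood far above the rest in male CRE-, female CRE- and female LKO livers, and only the male genotypes were apart. The log2 fold change was -1.24 ± 0.48 in males (adjusted p = 0.388, edgeR) and -0.04 ± 0.47 in females (adjusted p = 0.974, edgeR; SE, n = 4 per group). Leaving out 1 mouse moved the male value of Scd2 between -1.40 and -0.81, without a call. Scd2 is similar in sequence to Scd1, which was far more abundant (9951 ± 5440 TPM against 11.5 ± 7.31 TPM in male CRE- livers, SD, n = 4), and reads shared between them make the Scd2 count uncertain.

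Elovl3, an elongase of very long saturated and monounsaturated chains, differed mainly by sex (chromosome 19, 46120336 to 46124133, plus strand). It had 58.5, 50.6, 26.4 and 97.3 CPM in male CRE- and 3.14, 43.2, 153 and 70.0 CPM in male LKO livers. Female CRE- livers gave 0.931, 5.45, 2.06 and 2.30 CPM, and female LKO livers 2.42, 0.200, 4.94 and 0.289 CPM. Male LKO replicate 1 lay in the female range, and all other males were above all females. Between control sexes the log2 fold change, female over male, was -4.43 ± 1.02 (SE, n = 4 per group; adjusted p = 0.0494, edgeR), a 21.6-fold lower level in females. It was the only 1 of 8 members called in that comparison, in which 0.92% of all genes were called, and the call was lost on leaving out any 1 of the 8 control mice (adjusted p 0.0687 to 0.183, edgeR), with values from -5.05 (female CRE- replicate 2) to -4.06. No LKO effect was called in males (0.21 ± 0.87, adjusted p = 0.958, edgeR) or females (-0.43 ± 0.93, adjusted p = 0.842, edgeR).

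The LKO effects of the members were not shown to differ between the sexes. None of the 8 members was called in the test of the sex difference by edgeR or DESeq2, and edgeR called 0 of the 16742 genes (0%), with 1 member and 2672 genes at an unadjusted p under 0.05, while DESeq2 called 371 genes. For Elovl5, Fads1 and Fads2 the sex differences were 0.08 ± 0.44, -0.14 ± 0.27 and 0.11 ± 0.41 on the log2 scale (SE, 4 groups of n = 4).

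Ranked per length in the controls, 5 members were abundant and 3 were low. Male CRE- livers had 568 ± 109 TPM of Elovl5, 518 ± 131 of Fads2, 364 ± 67.5 of Fads1, 320 ± 34.8 of Acsl5 and 281 ± 104 of Elovl2 (SD, n = 4), followed by 61.6 ± 27.6 of Elovl3, 24.7 ± 22.6 of Acot1 and 11.5 ± 7.31 of Scd2. Neighbours in this order overlapped in their spread except for Elovl2 and Elovl3. Female CRE- livers had 420 ± 46.4 TPM of Fads2, 398 ± 35.6 of Elovl5, 398 ± 14 of Acsl5, 374 ± 49.3 of Fads1 and 177 ± 38.1 of Elovl2 (SD, n = 4). The first 4 of these lay within each other's spread and apart from Elovl2, and Acot1, Scd2 and Elovl3 followed at 56.3 ± 42.7, 12.8 ± 5.99 and 2.42 ± 1.79 TPM, of which the first pair overlapped in their spread. Summed over the 8 members, the level was 2150 ± 371 TPM in male CRE- against 1100 ± 220 in male LKO livers, and 1840 ± 67.9 against 1110 ± 153 in females, without overlap in either sex.

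Within the groups, some members varied together from mouse to mouse. After each group mean was taken off log2 CPM, Fads2 correlated with Acsl5 at r = 0.84 (rho = 0.80) and with Fads1 at r = 0.83 (rho = 0.86), and Elovl5 with Acsl5 at r = 0.74 (rho = 0.74), over the 16 libraries, which share their depth and scaling. Elovl2 had an r of 0.41 or less with each of the other members, and Scd2 had -0.41 with Elovl3 and -0.40 with Acot1. These are descriptions, chosen from the 28 pairs after their values were seen.

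Among all other genes tested, those most like each member in the same deviations (the highest Pearson r over 16 libraries) were taken as a description. Elovl5 varied most like Cyp2f2 (r = 0.89), Cyp4a12a (0.88) and G6pc1 (0.86). Elovl2 was most like Glra3, Arhgap6 and Sik3 (each r = 0.91), of which Glra3 was near its lower limit of detection at a mean of 0.192 CPM. For Fads2 the genes were Wipi2 (r = 0.90), Afg3l1 (0.90) and Mbd3 (0.89), and for Fads1 they were P4hb (0.88), Fkbp4 (0.88) and Inhca (0.87). Acsl5 was most like Agt (r = 0.95), Serpina1b (0.94) and Nucb1 (0.94), all expressed at over 100 CPM. Acot1 was most like Cpt2 (r = 0.95), Rmdn1 (0.94) and Baat (0.94), where Cpt2 is a mitochondrial carnitine acyltransferase. Elovl3 was most like Tymp (r = 0.84), Slc16a13 (0.84) and Tmem19 (0.82), and Scd2 like Mmp24 (0.93), Anxa2 (0.87) and Airn (0.87), with Mmp24 and Airn below 1 CPM.

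Other desaturases and elongases did not move as a block. Of the 10 tested, 3 were called lower in male LKO livers (Scd1, Scd3 and Scd4), while in females Scd1 was called lower and Elovl7 higher. Scd1, the main Δ9 desaturase of liver, had 12660 to 36020 CPM in male CRE- against 3275 to 5167 CPM in male LKO livers and 9839 to 13710 against 1935 to 3767 CPM in females. Its log2 fold change was -2.29 ± 0.32 in males (adjusted p = 0.00290, edgeR) and -2.03 ± 0.32 in females (adjusted p = 0.00550, edgeR; SE, n = 4 per group), and it was called without any 1 mouse. Scd3 and Scd4 were low, under 15 CPM in each mouse, and are similar to Scd1 in sequence, so their male log2 fold changes of -2.84 ± 0.58 and -2.98 ± 0.62 (adjusted p = 0.0414 and 0.0433, edgeR) are uncertain. Without male CRE- replicate 3, the highest at 14.2 and 3.82 CPM, they were -2.13 and -1.98 and not called. In females Scd3 and Scd4 also lay below all controls, with log2 fold changes of -1.82 ± 0.57 and -1.65 ± 0.59. Neither was called by edgeR (adjusted p = 0.0754 and 0.115), while DESeq2 called Scd3 but not Scd4 (0.0168 and 0.068). Elovl6, which elongates palmitate, had -1.06 ± 0.39 in males and -1.39 ± 0.39 in females and was not called (adjusted p = 0.347 and 0.0540, edgeR), although in females DESeq2 (0.00817) and edgeR without a filter on low counts (0.0484) or without LKO replicate 2 (0.0498) called it. Elovl7 rose by 2.47 ± 0.61 in females (adjusted p = 0.0352, edgeR) from a level under 0.5 CPM in each female control, a value that was 1.74 and not called without LKO replicate 4.

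Enzymes that complete the elongation cycle or hand electrons to the desaturases gave 0 calls of 10 in males and 2 lower of 10 in females, with medians of -0.02 and -0.47. The 2 were Cyb5b and Cyb5r3, a cytochrome b5 and the reductase that passes electrons to cytochrome b5 (log2 fold changes -0.89 ± 0.22 and -0.94 ± 0.26, adjusted p = 0.0340 and 0.0493, edgeR). The call of Cyb5r3 was lost with RLE scaling (adjusted p = 0.0537, edgeR). Other acyl-CoA synthetases gave 0 calls of 11 in males and 1 lower of 11 in females, Slc27a5, which activates bile acids and very long chains (-0.77 ± 0.19, adjusted p = 0.0335, edgeR). Other acyl-CoA thioesterases gave 0 of 11 in males and 2 lower of 11 in females, Acot11 (-2.23 ± 0.42, adjusted p = 0.0148, edgeR; in males -1.49 ± 0.41, adjusted p = 0.154, called by DESeq2 at 0.0177) and Acot7 (-0.83 ± 0.23, adjusted p = 0.0493, edgeR). None of the 12 genes of peroxisomal chain shortening, which completes docosahexaenoic acid synthesis, was called in either sex, with medians of -0.09 in males and -0.50 in females.

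Genes that place polyunsaturated chains in phospholipid or carry them gave 1 call of 11 in each sex. Mfsd2a, a transporter of lysophospholipids that carry docosahexaenoic acid, was read at 53.6, 116, 55.4 and 47.8 CPM in male CRE- and 8.36, 3.81, 3.03 and 5.29 CPM in male LKO livers, without overlap. It fell by 3.73 ± 0.52 on the log2 scale in males (SE, n = 4 per group; adjusted p = 0.00290, edgeR) and had -0.58 ± 0.46 in females (adjusted p = 0.515, edgeR), where leaving out 1 mouse moved Mfsd2a between -1.31 (LKO replicate 2) and -0.33 and limma-voom gave -1.13 (adjusted p = 0.0749), none of them called. The sex difference of 3.15 ± 0.67 was not called (adjusted p = 0.135, edgeR), was 2.43 without female LKO replicate 2, and was called by DESeq2 (3.18, adjusted p = 0.000858). Pla2g4a, a phospholipase that releases arachidonic acid, rose by 2.07 ± 0.50 in females (adjusted p = 0.0335, edgeR), a value that was 1.39 and not called without LKO replicate 1.

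SREBP-1c and LXR target genes, fixed as a list of 15, gave 3 lower in males and 6 lower in females, none higher, with medians of -1.05 and -1.18 beside -0.01 and 0.04 over all genes. Those called in both sexes were Scd1, Acacb, an acetyl-CoA carboxylase, and Acly, ATP citrate lyase. Acacb fell by 1.92 ± 0.28 in males (adjusted p = 0.00323, edgeR) and 1.31 ± 0.27 in females (adjusted p = 0.0201, edgeR), and Acly fell by 1.21 ± 0.24 and 1.18 ± 0.24 (adjusted p = 0.0414 and 0.0200, edgeR). Pnpla3, Fasn and Gpam were called in females, with log2 fold changes of -2.77 ± 0.40, -1.45 ± 0.31 and -1.18 ± 0.30 (adjusted p = 0.00325, 0.0231 and 0.0408, edgeR). Their male values of -1.31 ± 0.38, -1.19 ± 0.31 and -1.05 ± 0.30, also without overlap, were not called by edgeR (adjusted p = 0.177, 0.127 and 0.177) but were by DESeq2 (0.0337, 0.0108 and 0.0334). Among 11 regulators, Srebf1, which encodes SREBP-1, had 569, 718, 710 and 485 CPM in male CRE- and 123, 496, 165 and 290 CPM in male LKO livers, where replicate 2 overlapped the controls. Female Srebf1 values were 487, 366, 643 and 561 CPM in CRE- and 140, 252, 186 and 206 CPM in LKO livers, without overlap. Srebf1 fell by 1.39 ± 0.35 in females (adjusted p = 0.0369, edgeR) and had -1.21 ± 0.35 in males (adjusted p = 0.174, edgeR), where DESeq2 (0.0256) and edgeR without LKO replicate 2 (0.0287) called it. Insig1, which retains SREBP in the endoplasmic reticulum and is itself an SREBP target, fell by 1.22 ± 0.25 in females (adjusted p = 0.0176, edgeR) and had -0.85 ± 0.24 in males (adjusted p = 0.174, edgeR), called by DESeq2 (0.0339), limma-voom (0.0338) and edgeR with males fitted alone (0.0473). The count of Srebf1 covers transcripts of both SREBP-1 forms.

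PPARα target genes gave 2 higher of 18 in each sex and none lower, with medians of 0.36 in males and -0.19 in females. The 2 were Cyp4a31, a fatty acid hydroxylase with similar copies (2.19 ± 0.37 in males and 2.25 ± 0.36 in females, adjusted p = 0.0113 and 0.00646, edgeR), and Fgf21, a hepatic hormone of fasting (5.21 ± 0.87 and 4.04 ± 0.83, adjusted p = 0.0113 and 0.0194, edgeR). Fgf21 in female LKO livers was 8.13, 24.3, 90.8 and 1.50 CPM, with replicate 4 in the control range, and the female log2 fold change ran from 2.57 without LKO replicate 3 to 4.46 without LKO replicate 4. The male call of Fgf21 was lost with limma-voom (4.98 ± 1.29, adjusted p = 0.0871). Ppara itself was not called in males (-0.76 ± 0.33, adjusted p = 0.463, edgeR) or females (-0.27 ± 0.33, adjusted p = 0.691, edgeR). In the comparison of control sexes 1 gene of the PPARα list was called, Cidec, a lipid droplet protein that was 24.5-fold lower in females (adjusted p = 0.000167, edgeR), and none of the other 8 lists gave a call there. Cyp4a31, higher in female controls, was not called there by edgeR (1.46 ± 0.36, adjusted p = 0.0723) but was by DESeq2 (1.45, adjusted p = 0.00633).

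Among the pathway genes called for LKO, Scd1 in both sexes, Mfsd2a and Acacb in males and Acot11, Pnpla3 and Cyp4a31 in females were called without any 1 mouse, and each other call was lost on leaving out at least 1 mouse. When females were fitted alone, Elovl7, Cyb5b, Cyb5r3, Slc27a5, Acot7, Pla2g4a, Insig1, Fasn, Gpam and Fgf21 were no longer called (adjusted p 0.0501 to 0.109, edgeR), and when males were fitted alone, Scd3, Scd4 and Acly were not (adjusted p 0.0575 to 0.0981, edgeR). Without a filter on low counts the female calls of Acot7, Slc27a5 and Cyb5r3 were lost (adjusted p 0.0545 to 0.0634, edgeR), with at least 10 counts in every library those of Acot7 and Cyb5r3 (0.0506 and 0.0557), and with limma-voom the male calls of Acly and Scd4 (0.0790 and 0.0591). A block on replicate number ended the male calls of Cyp4a31, Acly, Scd3 and Scd4 and the female call of Elovl7 (adjusted p 0.0578 to 0.127, edgeR).

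**Figure D3:**
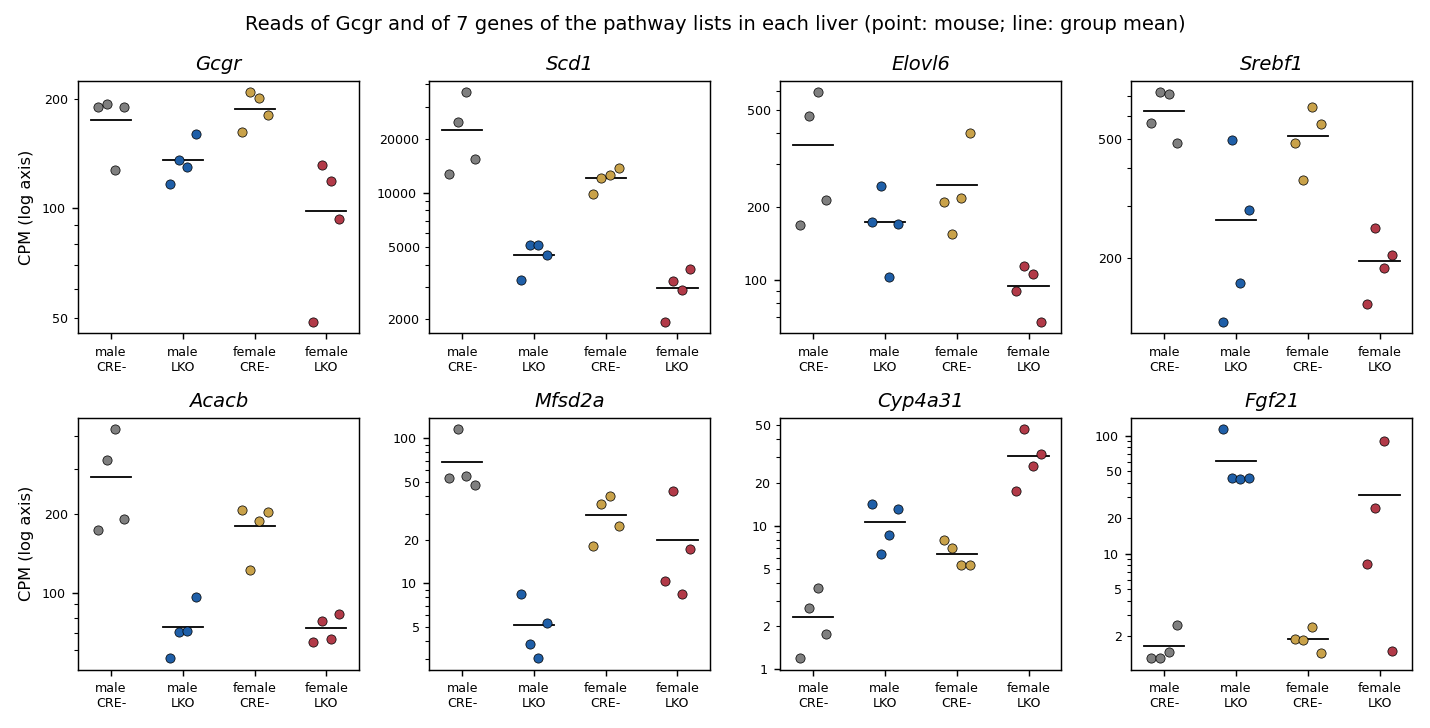
Each panel plots CPM on a log axis against the 4 groups for Gcgr and 7 genes of the pathway lists, with a point for each mouse and a line at the group mean. Scd1 and Acacb are apart between genotypes in both sexes, Mfsd2a only in males, and Fgf21 in female LKO replicate 4 is at 1.50 CPM.

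Marker genes of 4 cell types or states other than hepatocytes were called higher in female LKO livers, and their sums, which were not tested, overlapped between genotypes except for neutrophils. Hepatocyte markers (9 genes, Alb the most abundant in mean TPM over all libraries, 0 called, median log2 fold change -0.69) summed to 117200, 118100, 123400 and 140600 CPM in female CRE- and to 50920, 95730, 91750 and 70190 CPM in female LKO livers, without overlap. Kupffer cell and macrophage markers (3 of 12 higher, median 1.66, Lyz2 the most abundant) summed to 895, 650, 722 and 1222 CPM in female CRE- and 4070, 1202, 2547 and 1585 CPM in female LKO livers. Neutrophil markers (3 of 8 tested higher, median 3.70, S100a9 the most abundant) summed to 16.9 to 39.2 CPM in female CRE- and 44.4 to 669 CPM in female LKO livers. Proliferation markers (5 of 8 higher, median 1.93, Top2a the most abundant over all, but Mki67 in female CRE- livers) summed to between 6.27 and 20.2 CPM in female CRE- and between 17.1 and 90.0 CPM in female LKO livers. Sinusoidal endothelial markers (1 of 8 higher, median 0.42, Clec4g the most abundant) lay between 292 and 387 CPM in female CRE- and between 339 and 532 CPM in female LKO livers. Female LKO replicate 1, with the lowest hepatocyte and the highest Kupffer sum, also had the lowest CPM of its group in Elovl5, Fads2, Acsl5 and Gcgr but the second highest in Fads1 and Elovl2, and in TPM other mice were lowest in Elovl5, Fads2 and Acsl5. Without it the female log2 fold change of Elovl5 was -1.25 ± 0.33 (adjusted p = 0.0758, edgeR).

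The female genotypes were also apart in 2 measures of the libraries. Mitochondrial genes took 4.401, 5.396, 4.749 and 4.567% of the reads in female CRE- and 4.098, 4.394, 3.964 and 2.826% in female LKO livers, and the TMM factors were 0.953, 0.911, 0.904 and 0.807 against 1.13, 1.01, 1.13 and 1.04. In males both overlapped. The part of these differences in the female calls was not tested.

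In males no gene of these lists was called, and hepatocyte markers summed to 72170, 99740, 106300 and 98010 CPM in CRE- and 67770, 78850, 93700 and 81430 CPM in LKO livers. Male LKO replicate 1, the lowest of these and the highest of its group in Kupffer markers at 1419 CPM, was also the lowest in Elovl5, Fads1, Fads2 and Acsl5, and without it the male log2 fold change of Elovl5 was -1.25 ± 0.27 (adjusted p = 0.0869, edgeR). Neutrophil markers summed to 98.3, 20.6, 17.3 and 199 CPM in male CRE- and 26.8, 17, 13.5 and 12.6 CPM in male LKO livers, overlapping, with a median log2 fold change of -2.23, and adipocyte markers had a median of 1.99 with overlapping sums. The remaining lists (T and NK cells with Nkg7, B and plasma cells with Ighm, stellate cells and fibroblasts with Dcn, cholangiocytes with Spp1 the most abundant, and adipocytes with Fabp4 over all, but Cidea in male CRE- and Cfd in male LKO livers) had no call for LKO in either sex, and no marker of the 10 lists was at 0 in all libraries. Within female LKO livers the most abundant T and NK cell marker was Gzma. In bulk liver, fewer cells of a type and less RNA per cell cannot be told apart, and the part of cell composition in the lower member levels was not tested.

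Promoters of members that fell together in female LKO livers are shown for their sequence. The RefSeq promoter table (GRCm38.p6) matched 5 of the 8 members (Elovl5, Elovl2, Fads2, Acsl5 and Acot1) and gave no entry for Fads1, Scd2 or Elovl3. These members had 6 promoters in all, because Elovl2 had a further, overlapping entry. The 250 bases before the transcription start are printed 5′ to 3′ on the gene's strand, for Elovl5 at chr9:77917115-77917364 (plus strand), Fads2 at chr19:10101504-10101753 (minus strand) and Acsl5 at chr19:55253119-55253368 (plus strand). Capitals mark CCAAT (or ATTGG on the other strand) and CACGTG.
Elovl5: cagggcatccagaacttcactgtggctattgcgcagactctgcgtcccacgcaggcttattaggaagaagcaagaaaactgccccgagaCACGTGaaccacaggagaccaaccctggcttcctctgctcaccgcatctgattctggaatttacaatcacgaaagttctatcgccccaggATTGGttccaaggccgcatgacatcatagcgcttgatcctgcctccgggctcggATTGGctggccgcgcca
Fads2: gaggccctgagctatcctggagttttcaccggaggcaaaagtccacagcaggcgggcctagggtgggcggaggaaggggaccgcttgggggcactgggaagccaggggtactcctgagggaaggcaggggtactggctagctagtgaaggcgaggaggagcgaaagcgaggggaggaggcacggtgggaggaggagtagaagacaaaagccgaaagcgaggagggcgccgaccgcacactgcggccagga
Acsl5: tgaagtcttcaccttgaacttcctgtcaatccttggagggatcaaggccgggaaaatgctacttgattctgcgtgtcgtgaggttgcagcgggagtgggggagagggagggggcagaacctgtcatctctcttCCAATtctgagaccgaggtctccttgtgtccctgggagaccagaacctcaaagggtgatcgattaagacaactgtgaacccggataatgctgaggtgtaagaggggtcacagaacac
CCAAT, searched on both strands, was in the promoters of Elovl5, Acsl5 and Acot1, 3 of the 6 member promoters, and in 33.8% of the 32851 promoters of the table. The E-box CACGTG was in the Elovl5 promoter, 161 to 156 bases before the start, and in 6.02% of all promoters. The letters TCACNCCAC of a sterol response element core, TGACGTCA of a cAMP response element, and the direct repeats DR1 and DR4 (AGGTCA repeated after 1 and after 4 bases of any kind) were not found in these windows of any member, and were in 1.05%, 1.55%, 0.0335% and 0.0152% of all promoters. A match describes letters only, and the absence of a match in 250 bases says nothing of sites elsewhere. The GC content was 64.8% for Fads2, 55.6% for Elovl5 and 52.8% for Acsl5, beside a median of 52.4% over all promoters.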

How the data were processed

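Poly-A RNA of 16 mouse livers (4 male CRE-, 4 male LKO, 4 female CRE-, 4 female LKO) had been sequenced as paired reads. The authors aligned them to GRCm39 with STAR 2.7.1a and counted reads per gene with featureCounts (Subread 2.0.6), and deposited a raw count per gene and library, with exon length. They state counting by strand, while the library protocol names no strand-marking step, so antisense overlap is uncertain for Elovl3 (Pitx3, at most 36 reads) and Acsl5 (Gm31595, 3 shared bases).

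All 16 libraries were fitted together in edgeR 4.0.16 (R 4.3.3) with filterByExpr (minimum count 10), TMM and the quasi-likelihood test, with Benjamini-Hochberg adjustment over 16742 genes. DESeq2, which the authors used, was run here (1.42.0) as an alternative, with RLE scaling, no filter, at least 10 counts in every library, each sex fitted alone, a replicate block, limma-voom (3.58.1) with sample weights, and each mouse left out. CPM and log2 CPM (prior count 2), both with TMM factors, and TPM, without them, were computed from the counts. Totals of 33268424 to 56488920 reads gave members 8 to 44585 reads per library, so counting error matters mainly for Elovl3 in females.

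The members and lists were chosen with earlier results of these data known. The named genes are all members, Gcgr, Scd1, Elovl6, Srebf1 and Ppara, up to 6 called genes of smallest p from each of 9 pathway lists in each comparison, and the 3 genes most like each member. Called genes of 10 marker lists are counted. The fits were tested on simulated counts.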

Additional observations from a re-analysis of the deposited data

Results flagged for a closer look

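Of 32 sets of 4 mice (8 members in 4 groups), 4 had 1 mouse far from the other 3 by Dixon's ratio of gap to range, above its 95% critical value. Chance gives about 1 in 20. Fads2 was at 900 CPM in female CRE- replicate 4. Scd2 was at 50.8 CPM in male CRE- replicate 3 and at 87.8 CPM in female LKO replicate 4. Acsl5 was at 295 CPM, the lowest, in male LKO replicate 1. The cause of each value was not tested.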

How the results depend on the processing

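Directions of Elovl5, Elovl2, Fads1, Fads2 and Acsl5 in LKO livers held in both sexes under each alternative run. Calls did not: by DESeq2 the members called in males were 4 (1 by edgeR), and the genes called were 339 in males (76 by edgeR), 1816 in females (710), 371 for the sex difference (0) and 509 between control sexes (154). With limma-voom the genes called were 148 in males, 1976 in females (with 5 members, Elovl2 added), 29 for the sex difference and 329 between control sexes. With at least 10 counts in every library, 0 members were called in males and 0 between control sexes, where Elovl3 (down to 8 reads) was no longer tested and 78 genes were called. With each sex fitted alone, 0 members and 107 genes were called in males, and 2 members and 119 genes in females. Without a filter the sex difference gave 12 genes.

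Same-numbered mice correlated in their deviations at 0.170, 0.170, 0.144 and -0.013 in males and 0.173, 0.105, 0.117 and 0.028 in females (replicates 1 to 4), and not every mouse correlated best with its own number, so the numbers were not taken as pairs. These numbers, also used for the block, are those of the sample labels. The library names number male CRE- replicate 4 and female LKO replicates 3 and 4 otherwise, and pairs by library name were not tested. With the replicate block 2 members were called in males (Fads2, adjusted p = 0.0268, edgeR, beside Elovl5) and 4 in females, among 67 and 1012 genes, and 0 members and 2 genes for the sex difference. The block also moved uncalled Acot1 in males from 1.40 to 1.86 ± 0.44 and Fgf21 in females from 4.04 to 2.90 ± 0.73 (adjusted p = 0.0437, edgeR). It lost the male calls of Cyp4a31 (adjusted p = 0.0592, edgeR), Acly (0.0578), Scd3 and Scd4 (0.127 each) and the female call of Elovl7 (0.0603). No block fit or fit by sex was possible between control sexes, whose numbers lie within a sex, nor a fit by sex for the sex difference.

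Leaving out 1 mouse at a time gave 0 to 1 members and 26 to 49 genes in males, 1 to 5 members and 87 (without female CRE- replicate 2) to 1310 genes (without female LKO replicate 2) in females, 0 members and 0 to 14 genes for the sex difference, and 0 members and 68 to 149 genes between control sexes.

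Signs turned only for uncalled values. Elovl3 in males was -0.46 with the replicate block and -0.31 with limma-voom, and without 1 mouse -0.59 (LKO replicate 3) to 0.60. In females, leaving out 1 mouse gave Elovl3 -1.47 to 0.18 (CRE- replicate 2), Acot1 -0.95 to 0.12 (CRE- replicate 2) and Scd2 -0.82 to 0.46 (CRE- replicate 4). The sex difference ran from -0.15 (male LKO replicate 1) to 0.32 for Elovl5, from -1.67 to 0.15 (male LKO replicate 3) for Elovl3, from -0.24 to 0.06 (female CRE- replicate 4) for Fads1 and from -0.09 (male CRE- or female LKO replicate 2) to 0.31 for Fads2, which was -0.14 with limma-voom. Between control sexes Fads2 was 0.04 with limma-voom and -0.25 to 0.14 (male CRE- replicate 2) without 1 mouse. The cause was not tested.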
